A study of Mus musculus with 8 samples.

Results

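The enzymes that write, copy and remove cytosine methylation were followed through the infarcted hearts of WT and TKO mice by 8 gene symbols: *Dnmt1*, *Uhrf1*, *Dnmt3a*, *Dnmt3b*, *Tet1*, *Tet2*, *Tet3*, and *Tdg*. This list was chosen with earlier results of these data known. All 8 were among the 16994 genes of the deposited table, and 8 of 8 were among the 12999 genes whose mean level reached 1 CPM (counts scaled to the library total). *Dnmt1*, *Tet3*, and *Uhrf1* were higher in the infarct zone than in the left ventricle in the test across genotypes, by 1.49-fold, 1.68-fold, and 3.01-fold. In the same test 28.2% of all genes tested were higher. These folds depend on how the libraries were scaled, and with total counts alone 60.5% of all genes were called higher. None of the 8 genes differed between TKO and WT hearts across regions in edgeR's quasi-likelihood test after Benjamini-Hochberg adjustment, or in the Wald test of DESeq2. At an unadjusted p under 0.05, 1 of the 8 genes (*Uhrf1*, lower in TKO) differed by either tool, and by edgeR so did 16.2% of all genes tested.

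RNA came from the hearts of male WT mice and of male mice with a whole-body knockout of TIGAR (TKO), a regulator of glycolysis and apoptosis. At 16 weeks of age the left anterior descending coronary artery was permanently ligated, and the infarct, border, and remote zones were taken afterwards. Echocardiography was followed to 4 weeks after ligation, and the study's text gives no separate time for taking the zones. The left ventricle served as a normal reference, and sham surgery of those hearts is not stated either way in the study's text. Each genotype and region gave 1 library, 8 in all, and RNA of 3 mice per genotype was pooled for the infarct zone. For how the TKO mice were made, the study's text refers to earlier work.

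Total counts per library ranged from 27429240 to 33799249. *Tigar* had 1066 to 2215 counts in the 4 WT libraries and 51 to 87 in the 4 TKO libraries. The 6 cardiomyocyte markers summed to 26198 to 26238 CPM in the left ventricle and to 6190 CPM in the WT and 13102 CPM in the TKO infarct zone. Transcripts encoded by mitochondrial DNA made up 20.7% of counts in the WT infarct zone, 27.9% in the TKO infarct zone, and 36.6% to 39.3% elsewhere. The left ventricle stood apart from the other regions in its TKO over WT differences, with 84 genes departing from the other 3 regions at an adjusted p under 0.05 (edgeR), against 1 for the infarct, 0 for the border, and 0 for the remote zone. At an unadjusted p under 0.05 those numbers were 2179, 1018, 196, and 223.

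DNA methylation in mammals sits mostly on cytosines that are followed by guanine (CpG). DNMT3A and DNMT3B place new methyl groups, and DNMT1 copies them onto the new strand after replication, recruited by UHRF1, which binds hemimethylated DNA. The TET enzymes oxidize methylated cytosine in a reaction that consumes 2-oxoglutarate and oxygen, and TDG, a thymine DNA glycosylase, cuts out the most oxidized forms so that base excision repair can restore the plain base. The adult heart is made up of cardiomyocytes that rarely divide, together with fibroblasts, endothelial cells, and leukocytes that can.

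Promoters are shown for the 3 genes that rose in the infarct zone. That of *Tet2* is added, whose TKO over WT ratio went opposite ways in 2 regions without passing a test. CpG content does not set these genes apart from the others, as the counts below show. The windows are the 250 bases before a RefSeq start site on GRCm38.p6, on the strand of the gene, with each CpG in capitals. Where RefSeq lists several starts, the one with the most CpGs is shown. They lie at chr17:56304063-56304312 (plus strand), chr9:20952624-20952873 (minus strand), chr6:83441679-83441928 (minus strand), and chr3:133544391-133544640 (minus strand).
Uhrf1: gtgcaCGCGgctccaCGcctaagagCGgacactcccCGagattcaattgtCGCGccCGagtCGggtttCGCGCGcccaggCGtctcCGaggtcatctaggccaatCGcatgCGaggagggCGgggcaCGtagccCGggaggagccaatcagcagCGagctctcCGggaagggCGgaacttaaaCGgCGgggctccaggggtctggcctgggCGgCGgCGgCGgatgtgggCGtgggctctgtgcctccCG
Dnmt1: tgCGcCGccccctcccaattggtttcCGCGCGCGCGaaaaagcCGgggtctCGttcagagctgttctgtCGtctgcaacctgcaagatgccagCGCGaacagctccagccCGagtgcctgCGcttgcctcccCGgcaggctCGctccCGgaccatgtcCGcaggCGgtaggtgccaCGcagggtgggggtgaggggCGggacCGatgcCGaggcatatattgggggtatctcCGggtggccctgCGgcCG
Tet3: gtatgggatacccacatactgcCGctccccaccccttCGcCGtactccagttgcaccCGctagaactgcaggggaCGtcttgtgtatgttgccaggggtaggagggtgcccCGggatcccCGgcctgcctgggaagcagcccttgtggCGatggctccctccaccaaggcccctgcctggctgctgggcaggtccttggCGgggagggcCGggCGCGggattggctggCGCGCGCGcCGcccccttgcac
Tet2: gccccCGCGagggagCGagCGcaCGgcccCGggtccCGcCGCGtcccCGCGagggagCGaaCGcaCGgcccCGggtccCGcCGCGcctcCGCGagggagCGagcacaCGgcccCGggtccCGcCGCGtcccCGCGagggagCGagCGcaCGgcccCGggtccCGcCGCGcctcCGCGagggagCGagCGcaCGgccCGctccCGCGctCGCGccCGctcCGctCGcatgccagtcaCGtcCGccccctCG

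These 250-base windows held 30 CpGs for *Uhrf1*, 26 for *Dnmt1*, 17 for *Tet3*, and 51 for *Tet2*. RefSeq promoters of 300 bases, from 250 before to 50 after a start, were listed for 8 of the 8 genes, with 13 starts among them. The median of all 32851 such windows was 7 CpGs. The start with the most CpGs had 57 in *Tet2*, above or level with 99.9% of all windows, 47 in *Dnmt3a* (98.8%), 33 in both *Dnmt1* and *Uhrf1* (92.3%), 30 in *Dnmt3b* (89.4%), 26 in *Tdg* (84.5%), 22 in *Tet3* (78.5%), and 17 in *Tet1* (70.3%). Other listed starts were poorer, down to 2 CpGs at the start of *Dnmt1* at position 20959888 of chromosome 9. The ranks thus set the richest start of a gene against all single windows. The *Tet3* window overlaps exons of the antisense-strand gene *B230319C09Rik*. These windows were also searched on both strands for the letters TTTCGCGC, TTTGGCGC, TTTCCCGC, and TTTGCCGC, which are forms of the motif of E2F, the transcription factor family of the cell cycle. A match was found at 2 of the 13 starts, and 2.26% of all windows hold at least 1 of the 4 words. Each word holds a CpG, and the 2 matching windows have 33 CpGs each against a median of 7. The share of all windows is therefore not matched for CpG content, and no excess can be read from it. *Uhrf1* held TTTCGCGC at position -185 from the start shown. *Dnmt1* held TTTCGCGC on the opposite strand at -219 and TTTGGCGC at 34, and none of these matches overlapped another. A match is a match of letters only, and methylation of these windows was not analysed here.

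Levels of different genes were compared as CPM per kilobase of the longest coding transcript, with libraries scaled by edgeR's TMM factors (a trimmed mean that sets most genes of each library level). *Tdg* had the highest mean over the 8 libraries, 5.09 CPM per kilobase (SD 0.561), followed by *Dnmt3a* with 4.45 (SD 0.4996) and *Dnmt1* with 3.26 (SD 0.577). *Tet3* came next at 1.72 (SD 0.375). *Uhrf1* had 0.746 (SD 0.315), *Tet2* 0.632 (SD 0.157), *Dnmt3b* 0.451 (SD 0.136), and *Tet1* 0.268 (SD 0.0608). The ranges over the 8 libraries overlapped between neighbors in this order except between *Dnmt1* and *Tet3* and between *Tet3* and *Uhrf1*. With the median coding transcript length, *Dnmt3a* at 6.09 CPM per kilobase stood above *Tdg* at 5.52. Within the DNA methyltransferases, per kilobase, *Dnmt3a* made up 47.0% to 61.4% of the sum in a library, *Dnmt1* 35.04% to 45.9%, and *Dnmt3b* 3.57% to 7.09%. Within the TET enzymes, *Tet3* made up 60.2% to 76.9%, *Tet2* 13.6% to 31.5%, and *Tet1* 7.59% to 16.6%. In adult heart tissue of both genotypes, the transcripts of this machinery were mostly those of *Tdg*, *Dnmt3a*, *Dnmt1*, and *Tet3*.

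The steadiness of the genes differed. The highest library stood 5.20-fold above the lowest for *Uhrf1*, 2.34-fold for *Dnmt3b*, and 2.25-fold for *Tet2*. The same quotient was 1.88 for *Tet1*, 1.81 for *Tet3*, 1.70 for *Dnmt1*, 1.37 for *Dnmt3a*, and 1.33 for *Tdg*. The counts behind these values were small for *Uhrf1* (22 to 187), *Dnmt3b* (33 to 119), *Tet1* (73 to 182), and *Tet2* (88 to 273), and larger for *Dnmt3a* (944 to 1770), *Tdg* (414 to 851), *Dnmt1* (377 to 1047), and *Tet3* (390 to 1121).

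**Figure D1:**
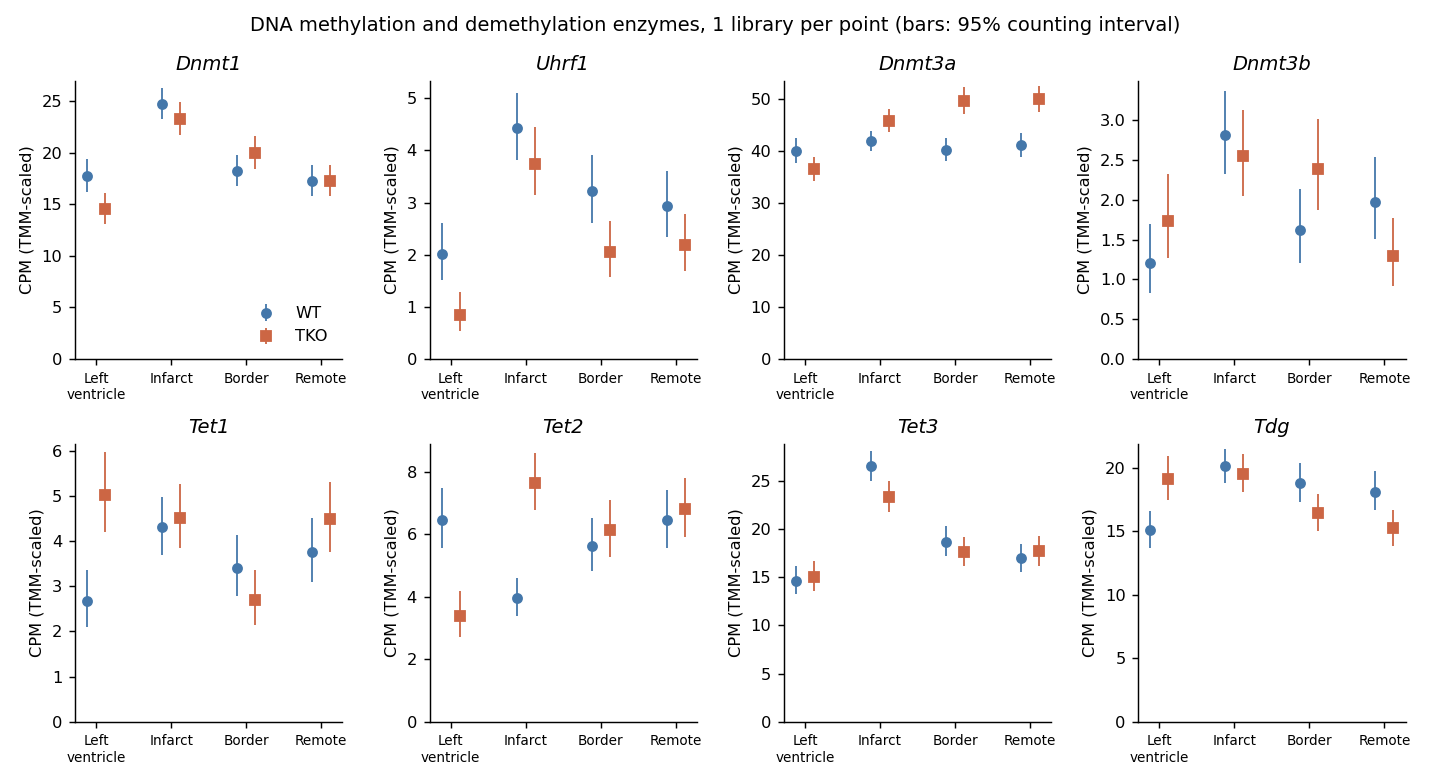
TMM-scaled CPM of each gene (vertical axes, from 0) in the left ventricle and the 3 zones, with WT as blue circles, TKO as orange squares, 1 library per point, and bars for the exact 95% interval of counting error. The 2 infarct libraries are the highest of their genotype for *Dnmt1*, *Uhrf1*, *Dnmt3b*, *Tet3*, and *Tdg*, and *Tet2* shows its widest gap between genotypes in the left ventricle and the infarct zone, in opposite directions.

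The first question was how these genes differ between the regions of an infarcted heart. Each region was tested against the left ventricle with edgeR, with 1 library of each genotype per region, so the genotypes stand in for replicates and the p-values bear on these libraries and not on mice. The 3 comparisons with the left ventricle share its 2 libraries. In the infarct zone 3 of the 8 genes were higher and 0 lower at an adjusted p under 0.05, against 28.2% of all genes tested that were higher and 28.6% that were lower. The median log2 fold change of the 8 genes was 0.40, and that of all genes was 0.019. A share of 3 in 8 is near that of all genes and is no result about the 8 as a group. In bulk tissue, fewer cells of a type and less RNA per cell cannot be told apart.

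*Uhrf1* (ENSMUSG00000001228, chromosome 17 from 56303321 to 56323486), the reader of hemimethylated DNA, had 187 counts in the WT infarct zone and 134 in the TKO infarct zone, or 4.42 and 3.75 CPM. The border zone had 3.21 CPM in WT and 2.06 in TKO, the remote zone 2.92 and 2.19, and the left ventricle 2.01 and 0.849. Each infarct library was the highest of its genotype, as was the case for 36.9% of all genes. Infarct over left ventricle was 1.59 on the log2 scale (SE 0.318, adjusted p = 0.0063 by edgeR). The ratio was 2.20 in WT (95% interval of counting error, 1.62 to 3.03) and 4.41 in TKO (2.80 to 7.28), the latter resting on 22 counts in the TKO left ventricle. Against the remote zone the log2 difference was 0.69 (SE 0.303, adjusted p = 0.102).

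*Dnmt1* (ENSMUSG00000004099, chromosome 9 from 20907209 to 20959888), the maintenance methyltransferase, had 24.7 CPM in the WT and 23.3 CPM in the TKO infarct zone. The other 6 libraries had between 14.6 CPM (TKO left ventricle) and 19.99 CPM (TKO border zone). The log2 fold change over the left ventricle was 0.57 (SE 0.122, adjusted p = 0.00786), with a WT ratio of 1.40 (1.25 to 1.56) and a TKO ratio of 1.60 (1.42 to 1.81). Over the remote zone it was 0.48 (SE 0.121, adjusted p = 0.0183). *Dnmt1* and *Tet3* were the 2 of 8 genes that were higher in the infarct than in the remote zone, against 24.6% of all genes.

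*Dnmt3a* (ENSMUSG00000020661, chromosome 12 from 3806007 to 3914443), a de novo methyltransferase, was among the flattest of the genes over the WT heart, with 40.0 CPM in the left ventricle, 41.8 in the infarct, 40.2 in the border, and 41.1 in the remote zone. The TKO libraries had 36.4, 45.8, 49.6, and 49.9 CPM in the same order. Its log2 difference between infarct and left ventricle was 0.19 (SE 0.130, adjusted p = 0.248). *Dnmt3b* (ENSMUSG00000027478, chromosome 2 from 153649450 to 153687730), the other de novo enzyme, had 1.20 CPM in the left ventricle and 2.81 in the infarct zone of WT hearts, and 1.74 and 2.55 in TKO hearts. Its log2 difference of 0.87 (SE 0.377, adjusted p = 0.0894) did not pass the test.

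*Tet3* (ENSMUSG00000034832, chromosome 6 from 83362373 to 83459084), the most abundant TET enzyme, had 26.5 CPM in the WT and 23.3 CPM in the TKO infarct zone. The other 6 libraries had 14.6 to 18.7 CPM. Its log2 fold change over the left ventricle was 0.75 (SE 0.104, adjusted p = 0.00193) and over the remote zone 0.52 (SE 0.103, adjusted p = 0.00755). The ratio to the left ventricle was 1.81 among WT libraries (1.61 to 2.03) and 1.55 among TKO libraries (1.37 to 1.75). *Tet3* and *Uhrf1* were the 2 genes at least 1.5-fold above the left ventricle in both genotypes, against 21.3% of all genes.

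*Tet2* (ENSMUSG00000040943, chromosome 3 from 133463679 to 133545139) had a different order of regions in the 2 genotypes. In WT it was lowest in the infarct zone, with 3.95 CPM against 6.46 in the left ventricle, 5.61 in the border, and 6.44 in the remote zone. In TKO it was highest there, with 7.64 CPM against 3.40, 6.14, and 6.81. Infarct over left ventricle was thus 0.611 among WT (0.492 to 0.759) and 2.25 among TKO libraries (1.76 to 2.89), and the test across genotypes gave a log2 difference of 0.21 (SE 0.407, adjusted p = 0.686).

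*Tet1* (ENSMUSG00000047146, chromosome 10 from 62804570 to 62908996), the least abundant per kilobase, ranged from 2.66 CPM in the WT left ventricle to 5.02 CPM in the TKO left ventricle, with the infarct libraries at 4.30 and 4.50 CPM. *Tdg* (ENSMUSG00000034674, chromosome 10 from 82629828 to 82650799) had 20.1 and 19.6 CPM in the infarct zone of WT and TKO hearts and 15.1 to 19.2 CPM elsewhere. Their log2 differences between infarct and left ventricle were 0.23 (SE 0.316, adjusted p = 0.566) and 0.21 (SE 0.155, adjusted p = 0.284). Of the exon bases of *Tdg*, 6.83% are shared with *Glt8d2* on the opposite strand, and whether the counts kept strands apart was not given in the sources used here.

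In the border and the remote zone, 0 of the 8 genes passed the edgeR test against the left ventricle, where 0.715% and 0.0% of all genes did. At an unadjusted p under 0.05 it was *Uhrf1* and *Tet3* in the border zone and *Uhrf1* in the remote zone, where 17.9% and 10.6% of all genes had such a p. DESeq2 called 0 of the 8 there too. For *Uhrf1* the log2 difference was 0.92 in the border zone (SE 0.319, adjusted p = 0.225) and 0.90 in the remote zone (SE 0.320, adjusted p = 0.417), and all 6 zone libraries were above the left ventricle of their genotype. *Dnmt3a* and *Tet3* were also above it in all 6, so 3 of 8 genes had this pattern, against 17.0% of all genes. The infarct library was the highest of its genotype in both genotypes for 5 of the 8 (*Dnmt1*, *Dnmt3b*, *Tet3*, *Uhrf1*, and *Tdg*), against 36.9% of all genes.

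**Figure D2:**
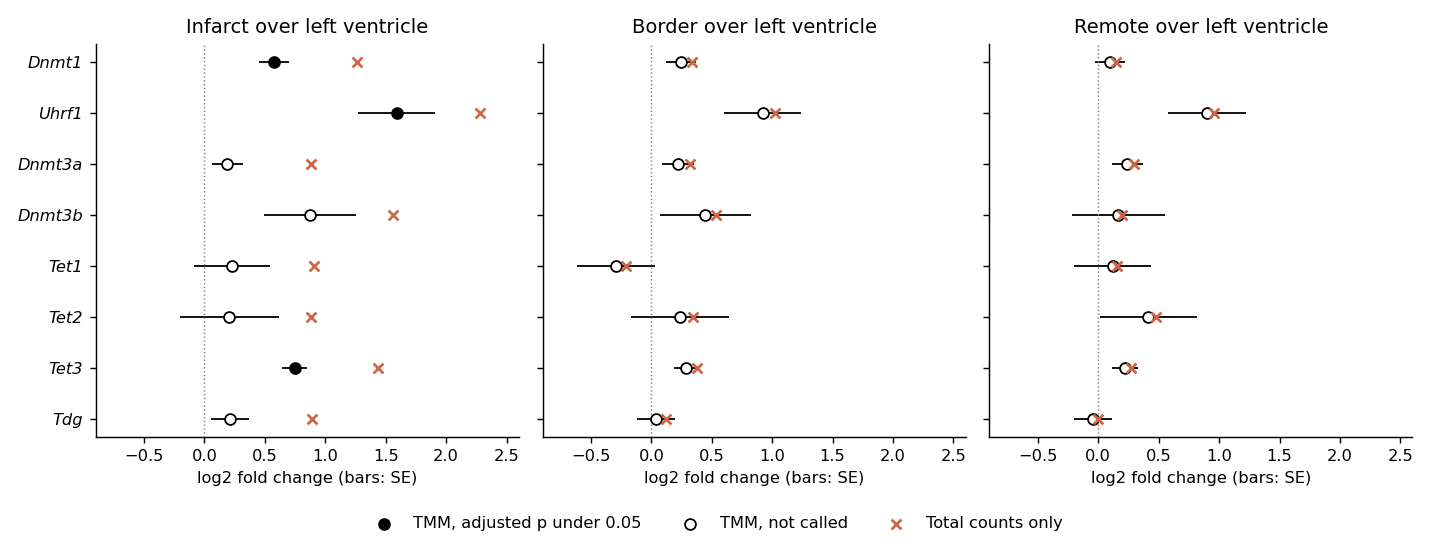
Log2 fold change of each gene (rows) in the infarct, border, and remote zones over the left ventricle, across genotypes, with circles for TMM scaling (filled where the adjusted p was under 0.05), bars for the SE, and crosses for scaling by total counts alone. *Dnmt1*, *Uhrf1*, and *Tet3* are filled in the infarct panel, and the crosses lie to the right of the circles there by a nearly constant distance.

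The infarct comparison depends on the scaling. The TMM factor was 1.54 in the WT and 1.26 in the TKO infarct library, whereas the other libraries had factors between 0.866 and 0.956. With total counts alone, the median of all genes moved to 0.71 on the log2 scale over the left ventricle, and 6 of the 8 genes were called higher, against 60.5% of all genes. Over the remote zone 6 of the 8 were then called higher, against 59.3%. Over the left ventricle, *Dnmt3a*, *Dnmt3b*, and *Tdg* were added to *Dnmt1*, *Uhrf1*, and *Tet3*. Relative to that median, the log2 differences were 1.57 for *Uhrf1*, 0.73 for *Tet3*, 0.56 for *Dnmt1*, and 0.18 for *Dnmt3a*. The order of these 4 was as with TMM. That follows from the nearly constant shift of all genes between the scalings and is no separate check.

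Markers of other cells were read in the same regions. From the left ventricle to the infarct zone, the summed level of the 6 fibroblast markers went from 817 to 7793 CPM in WT and from 901 to 6515 CPM in TKO. The 6 leukocyte markers went from 79.99 to 294 CPM in WT and from 63.1 to 216 CPM in TKO. The 6 endothelial markers summed to 677 and 586 CPM in WT and to 710.3 and 643 CPM in TKO. Of these 6, 2 were above and 4 below the left ventricle in each genotype. In the test across genotypes 1 was called higher and 1 lower. With total counts alone 5 were called higher and 0 lower, where 60.5% of all genes were higher. The 15 markers of cycling cells went from 73.6 to 142 CPM in WT and from 69.3 to 122 CPM in TKO. In the test across genotypes 8 of the 15 were called higher, 0 lower, and 7 not called. Of all genes, 28.2% were called higher and 28.6% lower. No marker of these 5 lists was at the floor of 3 counts in a library, and the part of these cells in the levels of *Dnmt1*, *Uhrf1*, and *Tet3* was not tested.

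The second question was whether loss of TIGAR goes with other levels of these enzymes. Across the 4 regions, with region as a block, 0 of the 8 genes passed edgeR's test between TKO and WT, where 0.138% of all genes did. At an unadjusted p under 0.05, 1 of the 8 (*Uhrf1*) differed, against 16.2% of all genes. The 4 regions stand in for replicates here, and no source used here tells if 1 heart gave several of the libraries. The log2 differences of 7 genes lay between -0.057 (*Dnmt1*, SE 0.0861) and 0.22 (*Tet1*, SE 0.226), with adjusted p from 0.449 to 0.911. Without the left ventricle *Tet1* went from 0.22 to 0.0029 and *Dnmt3a* from 0.15 to 0.24 (adjusted p = 0.127), and without the border zone *Tet1* was at 0.40 (adjusted p = 0.645).

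*Uhrf1* had the largest difference of the 8, -0.60 on the log2 scale (SE 0.220, adjusted p = 0.276 by edgeR). It had 55 counts in the WT and 22 in the TKO left ventricle, 187 and 134 in the infarct, 99 and 61 in the border, and 89 and 66 in the remote zone. It was lower in TKO in 4 of 4 regions, as were 13.5% of all genes. The TKO over WT ratio was 0.423 in the left ventricle (0.246 to 0.706) and 0.640 in the border zone (0.457 to 0.889). The intervals of the infarct ratio of 0.848 (0.674 to 1.06) and of the remote ratio of 0.749 (0.537 to 1.04) held 1, so these differences were not detectable at this depth. Without the left ventricle the log2 difference was -0.42 (adjusted p = 0.226). Beside it, the median of the 15 cycling-cell markers in TKO, relative to WT, was 0.971 in the left ventricle, 0.794 in the infarct, 0.747 in the border, and 0.685 in the remote zone, and 14 of 15, 15 of 15, and 14 of 15 were below 1 in the 3 zones. The part of cycling cells in the *Uhrf1* level was not tested.

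*Tet2* had 177 counts in the WT and 88 in the TKO left ventricle, and 167 in the WT and 273 in the TKO infarct zone. The TKO over WT ratio was thus 0.526 in the left ventricle (0.403 to 0.683) and 1.93 in the infarct zone (1.59 to 2.36), with 1.09 in the border (0.883 to 1.35) and 1.06 in the remote zone (0.865 to 1.29). Neither pair of libraries has a replicate. The departure of the left ventricle from the other 3 regions was -1.31 on the log2 scale (adjusted p = 0.230 by edgeR), and that of the infarct zone was 1.18 (adjusted p = 0.686). Neither passed, where 0.646% and 0.00769% of all genes did.

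*Tet1* was 1.88-fold higher in the TKO left ventricle (1.40 to 2.55), and its ratios were 1.05 in the infarct (0.842 to 1.30), 0.791 in the border (0.584 to 1.07), and 1.20 in the remote zone (0.926 to 1.55). *Tdg* had ratios of 1.27 in the left ventricle (1.11 to 1.45), 0.972 in the infarct (0.878 to 1.08), 0.874 in the border (0.773 to 0.987), and 0.840 in the remote zone (0.741 to 0.953). *Tet3* stayed between 0.880 (infarct zone, 0.804 to 0.964) and 1.04 (remote zone, 0.921 to 1.18). In the left ventricle the departures of *Tdg* (0.50, adjusted p = 0.206) and *Tet1* (0.91, adjusted p = 0.307) did not pass either.

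The *Dnmt3a* ratio was below 1 in the left ventricle, 0.911 (0.834 to 0.994), and higher in the other 3 regions, with 1.10 in the infarct (1.02 to 1.17), 1.23 in the border (1.14 to 1.33), and 1.21 in the remote zone (1.12 to 1.31). *Dnmt1* had ratios of 0.821 (0.716 to 0.941), 0.942 (0.859 to 1.03), 1.10 (0.977 to 1.23), and 1.001 (0.885 to 1.13) in the same order. *Dnmt3b* ranged from 0.657 in the remote zone (0.427 to 0.999) to 1.48 in the border zone (1.01 to 2.16). At least 1.5-fold differences, after a prior count of 2, were 1 higher (*Tet1*) and 2 lower (*Tet2*, *Uhrf1*) in the left ventricle, where 5.69% of all genes were higher and 8.74% lower by as much. There was 1 in the infarct zone (*Tet2*, higher, against 10.1% of all genes), 1 in the border zone (*Uhrf1*, lower, against 8.32%), and 0 in the remote zone, against 9.45% in either direction. At 2-fold, 1 gene (*Uhrf1*) remained in the left ventricle and 0 in the infarct, border, and remote zones, against 5.51%, 3.87%, 4.48%, and 3.53% of all genes.

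**Figure D3:**
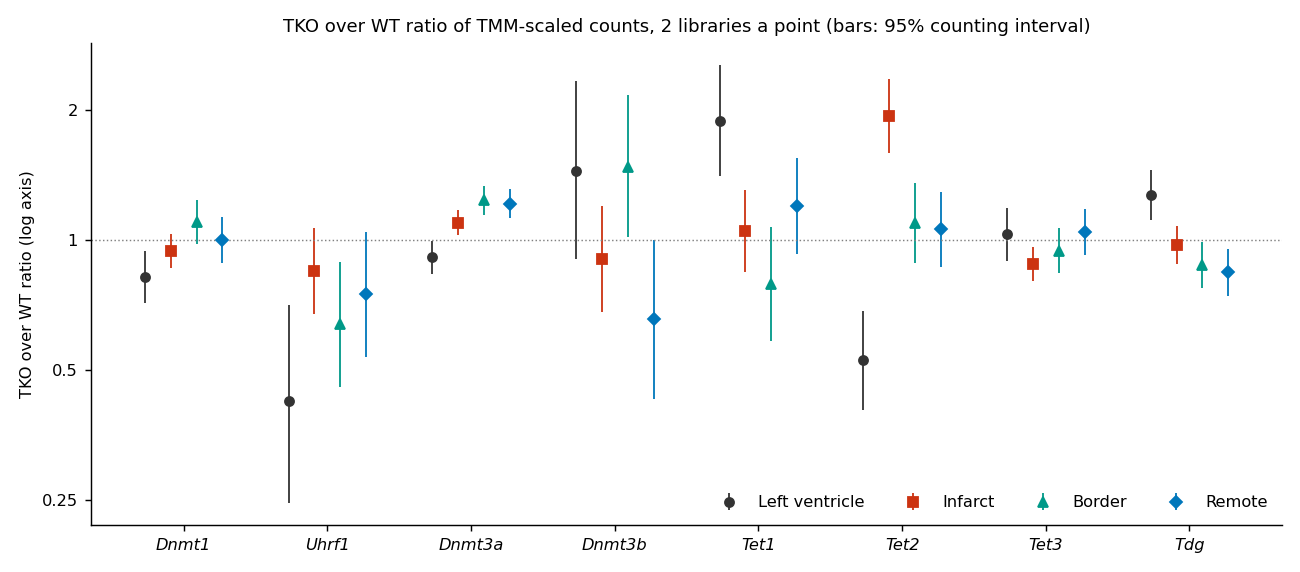
TKO over WT ratio of each gene in each region (vertical log axis, dotted line at 1), with bars for the exact 95% interval of counting error, which does not hold the spread between mice. The 4 points of *Uhrf1* lie below 1, and *Tet2* lies at 0.526 in the left ventricle and 1.93 in the infarct zone.

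Ratios of 2 genes within a library do not depend on the scaling of libraries. *Dnmt1* over *Dnmt3a*, maintenance over de novo transcripts, in the WT libraries was 0.443 in the left ventricle, 0.592 in the infarct, 0.453 in the border, and 0.419 in the remote zone. The TKO libraries had 0.399, 0.509, 0.403, and 0.346. The infarct zone was highest in both genotypes, and TKO was below WT in 4 of 4 regions, with a geometric mean TKO over WT of 0.868. The exact sign-flip permutation test over the 4 regions, two-sided, gave p = 0.125, which is the smallest p that 4 regions allow, so this design cannot reach the threshold. This pair of genes was chosen for this test after its values were seen.

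*Uhrf1* over *Dnmt1* was also lower in TKO in 4 of 4 regions, with a geometric mean ratio of 0.671 and the same smallest p of 0.125. It was 0.113 in the WT and 0.0584 in the TKO left ventricle, and 0.179 and 0.161 in the infarct zone. *Tet2* over *Tet3* was 0.149 in the WT infarct zone, the lowest of the 8 libraries, and 0.327 in the TKO infarct zone. In the left ventricle it was 0.441 in WT and 0.226 in TKO, and in the border and remote zones it lay between 0.300 and 0.385. *Tet1* over *Tet3* was 0.333 in the TKO left ventricle and 0.153 to 0.254 in the other 7 libraries. For these 2 TET pairs the genotypes differed in opposite directions between regions (exact permutation p = 0.625 and 0.5 over the 4 regions). *Dnmt3b* over *Dnmt3a* was lower in TKO in 2 regions and higher in 2 (exact permutation p = 0.875).

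**Figure D4:**
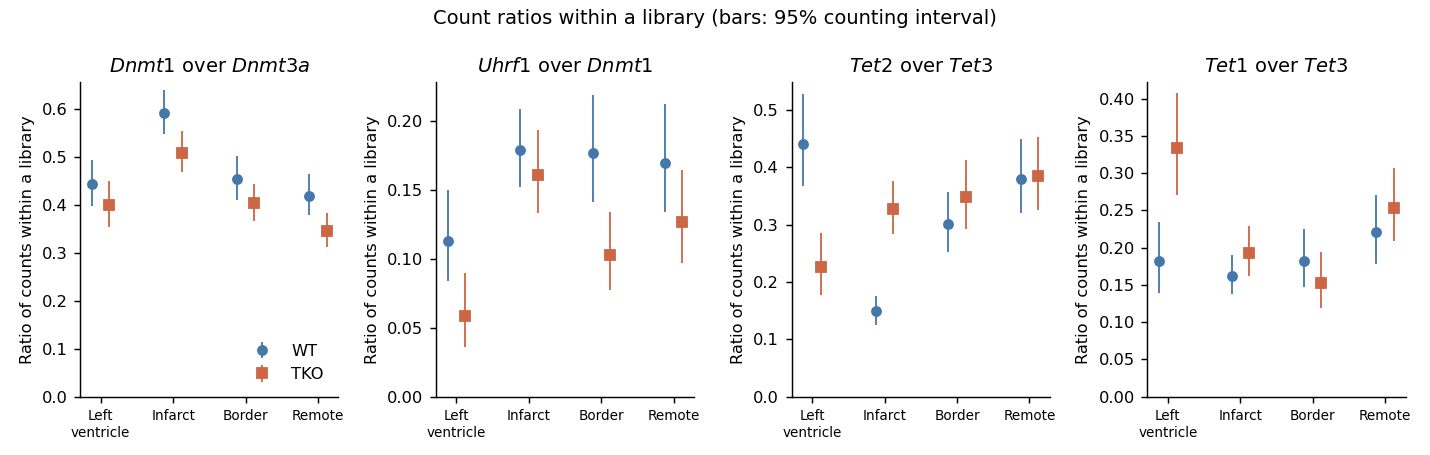
Ratio of the counts of 2 genes within each library (vertical axes, from 0), WT as blue circles and TKO as orange squares, with bars for the exact 95% interval of counting error. *Dnmt1* over *Dnmt3a* and *Uhrf1* over *Dnmt1* are lower in TKO in each of the 4 regions, and *Tet2* over *Tet3* is lowest in the WT infarct zone.

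The genes that work with these enzymes or supply their substrates were read from lists chosen with earlier results of these data known. Counts from these lists are therefore descriptions only. Of all genes tested, 28.2% rose and 28.6% fell in the infarct zone over the left ventricle. Of 8 tested partners of maintenance and de novo methylation, 4 rose and 0 fell in the infarct zone over the left ventricle, with a median log2 fold change of 0.42 against 0.019 for all genes. The largest were *Hells*, a chromatin remodeler needed for methylation of repeats (1.30, SE 0.284), and *Lig1*, the ligase of the lagging strand (0.97, SE 0.178). The lowest were *Pcna*, the replication clamp (-0.064, SE 0.145), and *Trim28*, a corepressor (-0.024, SE 0.0885), which did not pass. Of 8 methyl-CpG readers, 3 rose and 1 fell, near the shares of all genes (28.2% and 28.6%). *Mbd4*, a reader that is also a glycosylase (1.13, SE 0.256), and *Zbtb4*, a zinc finger reader (0.81, SE 0.0918), were highest, while *Mbd3* fell by 0.36 on the log2 scale (SE 0.100) and *Mbd2* was at -0.18 (SE 0.101). With total counts alone, 8 partners and 7 readers were called higher, as were 60.5% of all genes, and *Mbd3* turned to 0.33.

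Base excision repair acts after TDG. The list read for it also held other glycosylases (*Mbd4*, *Ung*, and *Neil2*), so not every gene in it acts after TDG. Of 9 genes of this list tested, 1 rose and 5 fell in the infarct zone with TMM scaling, against 28.2% and 28.6% of all genes. The median was -0.54 on the log2 scale. The one that rose was *Mbd4*, which was also counted among the readers. With total counts alone the median was 0.14, and 2 rose and 1 fell, where 60.5% of all genes rose. The one that fell under both scalings was *Ung*, the uracil DNA glycosylase, at -1.52 (SE 0.218) and -0.85. *Neil2*, another glycosylase, was at -0.73 (SE 0.338) and *Lig3*, the ligase that seals the repaired strand, at 0.025 (SE 0.139). Of 6 TET partners, *Ogt*, the glycosyltransferase bound by TET proteins, rose by 0.65 (SE 0.112) and *Gadd45a*, a stress-induced protein linked to demethylation, fell by 1.36 on the log2 scale (SE 0.107), and both directions held with total counts. *Gadd45b* was at 0.47 (SE 0.331) and *Cxxc5* at -0.34 (SE 0.187), and did not pass.

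The substrates of the 2 reactions come from metabolism. Of 14 genes of 2-oxoglutarate supply and of the enzymes that clear its rivals succinate, fumarate, and 2-hydroxyglutarate, 13 fell and 0 rose in the infarct zone, against 28.6% and 28.2% of all genes, with a median of -1.54 on the log2 scale. *Idh2*, the mitochondrial isocitrate dehydrogenase, fell by 1.76 (SE 0.265) and *Sdhb*, a subunit of succinate dehydrogenase, fell by 1.68 (SE 0.242). *Idh1*, the cytosolic form, was at -0.58 (SE 0.142) and *Glud1*, glutamate dehydrogenase, at -0.38 (SE 0.106), and these turned to 0.11 and 0.30 with total counts alone, where 11 of the 14 were still called lower. The median of the 6 cardiomyocyte markers was -1.48 in the same comparison, and their part in these levels was not tested. Of 11 methyl donor genes tested, 7 fell, against 28.6% of all genes, but with total counts alone 0 fell. *Gnmt*, a methyltransferase that uses up methyl donors (-1.23, SE 0.303), and *Mtrr*, which reactivates methionine synthase (-1.05, SE 0.143), fell with TMM and did not pass with total counts. *Ahcyl1* was at -0.015 (SE 0.104).

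Between TKO and WT across regions, 0 genes of these 6 lists and 0 of the 15 cycling-cell markers passed edgeR's test. Of the cell type markers, the leukocyte marker *Ptprc*, which encodes CD45, was lower in TKO by -0.67 on the log2 scale (SE 0.0659, adjusted p = 0.0431). Of the 6 fibroblast and the 6 cardiomyocyte markers, 0 passed edgeR's test between genotypes. The median TKO over WT ratio of all genes was 1.006 in the left ventricle. It was 1.005 in the infarct, 0.999 in the border, and 0.993 in the remote zone. The 6 fibroblast markers were below 1 in 6 of 6 cases in each of the 3 zones. Their medians were 0.825 in the infarct, 0.552 in the border, and 0.644 in the remote zone. In the left ventricle 3 were above and 3 below 1 (median 1.05). The 6 cardiomyocyte markers were above 1 in 6 of 6 cases in each zone, with median ratios of 2.04 in the infarct, 1.29 in the border, and 1.17 in the remote zone, while in the left ventricle 3 were above and 3 below 1 (median 1.04).

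The pattern of each gene over the 8 libraries was set beside that of all other genes, as a description. The log2 CPM of *Uhrf1* was most like that of *Mki67*, which encodes the proliferation antigen Ki-67 (Pearson's r = 0.989 over 8 libraries), and *Cep135* (0.986). *Mki67* was 1.72 higher in the infarct zone on the log2 scale (SE 0.176). *Tet3* was most like *Adgra2* (0.996) and *Nsmf* (0.994), *Dnmt1* like *Synj1* (0.988) and *Mast3* (0.988), and *Dnmt3a* like *Dido1* (0.991) and *Khdc4* (0.933). *Tdg* was most like *Cdca8* (0.983) and *Dbnl* (0.965), *Tet2* like *Washc5* (0.960) and *Rufy4* (0.949), *Dnmt3b* like *Msantd2* (0.948) and *Ewsr1* (0.943), and *Tet1* like *Krt7* (0.895) and *Zfp654* (0.890). Among the 8 genes themselves, the closest pairs were *Dnmt1* and *Tet3* (0.902), *Dnmt1* and *Uhrf1* (0.833), and *Tet3* and *Uhrf1* (0.812), the 3 genes that rose in the infarct zone. The 8 points share the regions and their scaling, and the genes named were the 2 with the highest r for each of the 8, out of the 12999 genes tested.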

How the data were processed

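Reads of the 8 libraries were trimmed by the authors with Trim Galore 0.6.5, quantified with Kallisto 0.46 against the mm10 (GRCm38) transcriptome, and summed to genes with tximport. The authors deposited estimated counts of 16994 genes in whole, unnormalized numbers, and how they were rounded was not given in the sources used here. From these, counts were scaled by TMM, with factors based on 12999 genes (mean CPM 1 or more), and tested in R 4.3.3 with edgeR 4.0.16 (quasi-likelihood test with region and genotype as terms, Benjamini-Hochberg adjustment over all genes, threshold 0.05). DESeq2 1.42.0 was an alternative. The 153 rows without a symbol held 0.0947% to 0.210% of counts. Each genotype and region has 1 library, so ratios between 2 libraries have exact Clopper-Pearson 95% intervals, which cover counting error only since reads are not independent molecules, and no p-value. A library with 3 counts or fewer was taken as at the floor, 0.0888 to 0.109 CPM. At least 1.5-fold was counted after a prior count of 2.

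The members and lists were chosen with earlier results of these data known. The text names the 8 members, the 2 highest and 2 lowest genes of each partner list in infarct over left ventricle, any list gene that passed between genotypes, *Tigar*, and the 2 genes most like each member. *Neil1*, *Zscan4c*, and *Mat1a* of the lists were not analysed here. One gene that this rule covers is not reported here. Gene positions come from GENCODE M21 (16879 identifiers found) and promoters from RefSeq, both on GRCm38. The tests were checked on simulated counts with 50 genes changed at each fold and 12799 unchanged. Unchanged genes had the same mean level in all libraries, and the spread followed the trend over genes. For a true change of 1.5-fold, edgeR called 66% of changed genes between genotypes and 28% in infarct over left ventricle. For a 2-fold change it called 92% and 84%. A 1.5-fold difference can thus be missed. In the data 7385 genes were called in infarct over left ventricle and 18 between genotypes. The adjusted threshold differs with these numbers, so the simulated rates do not give the share of real changes found. Alternatives were total counts, DESeq2 size factors, no filter, mitochondrial DNA-encoded genes left out, DESeq2, each region left out, 1 genotype alone, a prior count of 0.5, and a 2-fold limit. The ratio of *Dnmt1* to *Dnmt3a* was added after the data were seen. Other steps used Python 3.11.15 with pandas 2.3.3, scipy 1.17.1, and matplotlib 3.10.9.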

Additional observations from a re-analysis of the deposited data

How the results depend on the processing

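*Dnmt1*, *Uhrf1*, and *Tet3* stayed above the threshold in infarct over left ventricle under total counts, DESeq2 size factors, no filter, the mitochondrial genes left out, and DESeq2, and none of the 8 genes passed between genotypes under these or with a region left out. With total counts alone the members called higher were 6 over the left ventricle and 6 over the remote zone. Over the remote zone *Dnmt3a* then turned to 0.59 and *Tet2* to 0.41 on the log2 scale, and between genotypes *Dnmt3b* turned to -0.030 and *Tet2* to -0.029, and this scaling put the median of all genes at 0.71 over the left ventricle, 0.66 over the remote zone, and -0.11 between genotypes. The split of calls in infarct over left ventricle went from 3670 higher and 3715 lower to 7869 and 1084. Genes called between genotypes over the whole table were 18, and 56 with total counts, 342 with DESeq2, and 3 to 83 with a region left out (83 without the left ventricle, 6 without the infarct, 5 without the border, 3 without the remote zone), of which the cause was not tested. Genes called in border over left ventricle were 93, and 200 with total counts and 576 with DESeq2. In remote over left ventricle they were 0, and 18 with total counts, 3 without the filter, and 162 with DESeq2. With a region left out in turn, log2 differences between genotypes near 0 changed sign: they ranged from -0.12 to 0.014 for *Dnmt1*, -0.087 to 0.30 for *Dnmt3b*, -0.16 to 0.033 for *Tdg*, -0.078 to 0.0061 for *Tet3*, and -0.22 to 0.39 for *Tet2*. Without a change of sign, they ranged from 0.0029 to 0.40 for *Tet1*, 0.090 to 0.24 for *Dnmt3a*, and -0.74 to -0.42 for *Uhrf1*. At a limit of 2-fold, 1 member differed between genotypes in the left ventricle, 0 in the infarct, and 0 in the border. Between the remote libraries 1 member was at least 1.5-fold different with total counts, and 1 with a prior count of 0.5. The within-library *Dnmt1* over *Dnmt3a* difference stayed between -0.22 and -0.18 on the log2 scale with each region left out. This range is no check of the difference. The pair was chosen after its values were seen, and all 4 regions had the same sign, so leaving 1 out could not change it. WT and TKO libraries were paired by region in the test between genotypes. Pairing by replicate number could not be tried, since the labels carry no such numbers. Depth limits *Uhrf1* and *Dnmt3b* most, with counts down to 22 and 33.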
